A study of Mus musculus with 16 samples.

Results

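The 10 genes described here are markers of mural cells: Notch3, Pdgfrb, Rgs5, Kcnj8, Abcc9, Cspg4, Higd1b, Vtn, Anpep and Des. They were found by symbol among 27179 gene IDs in counts from 16 whole hearts of mouse embryos at embryonic day 10.5, and all 10 had an ID in the table. The hearts came from 4 genotypes with 4 hearts each, every heart a separate embryo. In order of alleles lost the genotypes were Ing4+/- Ing5-/- (3 alleles lost), Ing4+/+ Ing5-/- (2), Ing4+/- Ing5+/+ (1) and Ing4+/+ Ing5+/+ (wild type, 0). No treatment or Cre driver is given in the labels. ING4 and ING5 are chromatin reader subunits of histone acetyltransferase complexes. The list was chosen by the levels of Notch3 and Kcnj8, which varied in these data, with the question of whether mural cells, and not low oxygen, could lie behind that variation. The values of Notch3 and Kcnj8 are therefore a description and carry no test.

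Mural cells are the pericytes of capillaries and the smooth muscle cells of larger vessels, and they wrap the endothelial tube. Endothelial cells secrete the growth factor PDGF-BB, encoded by Pdgfb, which recruits mural cells through its receptor PDGFR-beta, encoded by Pdgfrb. Endothelial Jagged1 signals to NOTCH3 on the neighbouring mural cell and sustains Notch3 expression there. In the heart most pericytes arise from the epicardium, the outer layer that is still spreading over the heart at the stage sampled.

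The 2 genes that prompted the list lie on different chromosomes, Notch3 on chromosome 17 and Kcnj8 on chromosome 6. Their promoter windows, from RefSeq on GRCm38.p6, run from 250 bases before to 50 bases after the start of each gene. They are shown because the question set hypoxia-inducible factor (HIF) against the Notch programme of mural cells. Capitals mark the letters ACGTG or GCGTG, the core of a HIF element, and TGGGAA, the core bound by the Notch effector RBPJ, read on either strand.
Notch3, chr17:32166841-32167140, minus strand: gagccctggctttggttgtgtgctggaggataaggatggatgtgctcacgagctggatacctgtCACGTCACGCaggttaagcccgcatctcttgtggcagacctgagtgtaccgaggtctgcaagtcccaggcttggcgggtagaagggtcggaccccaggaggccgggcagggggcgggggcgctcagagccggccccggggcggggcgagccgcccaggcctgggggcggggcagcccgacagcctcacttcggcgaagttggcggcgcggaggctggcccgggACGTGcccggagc
Kcnj8, chr6:142571565-142571864, minus strand: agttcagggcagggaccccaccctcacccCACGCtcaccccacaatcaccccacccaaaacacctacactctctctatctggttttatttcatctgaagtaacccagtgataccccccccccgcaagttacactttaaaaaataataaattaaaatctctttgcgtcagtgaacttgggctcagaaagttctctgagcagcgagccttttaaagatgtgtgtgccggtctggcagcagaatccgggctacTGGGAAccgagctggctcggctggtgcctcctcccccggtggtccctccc

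The Notch3 window held 3 matches to the HIF core. A pair lay side by side, read on the complementary strand, at -186 and -181 from the start of the gene, and the other match began at 38. It held no match to the RBPJ core. The Kcnj8 window held 1 match to the HIF core, at -221, and 1 to the RBPJ core, at the start itself. A promoter window was found for 8 of the 10 genes, and 5 of these 8 held a HIF core and 3 an RBPJ core. Over all 32851 promoter windows of the reference, 43.8% held a HIF core, 8.93% held at least 3, and 25.6% held an RBPJ core. A match of a few letters is a description of the sequence and does not show binding.

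Total counts were 19753100 to 35664331 per library, and levels are given as CPM, counts scaled to library size with the TMM method of edgeR. Ing5 averaged 21.0 ± 2.75 CPM in Ing4+/- Ing5-/-, 23.5 ± 4.48 CPM in Ing4+/+ Ing5-/-, 37.2 ± 3.70 CPM in Ing4+/- Ing5+/+ and 33.5 ± 3.46 CPM in wild-type hearts (SD, n = 4 each), and these means followed the Ing5 labels. Which part of Ing5 is deleted is not stated in the labels. Ing4 averaged 34.3 ± 1.90 CPM in Ing4+/- Ing5-/-, 51.0 ± 7.31 CPM in Ing4+/+ Ing5-/-, 34.1 ± 1.85 CPM in Ing4+/- Ing5+/+ and 39.5 ± 7.60 CPM in wild-type hearts. The Ing4 levels of Ing4+/- Ing5+/+ (32.0 to 36.3 CPM) and wild-type hearts (28.2 to 44.4 CPM) overlapped. The litters were 7 in number. Litters 1 and 2 held only Ing5-/- hearts, litters 3 and 5 only Ing5+/+ hearts, and litters 4, 6 and 7 held both. No litter held both Ing4+/+ Ing5-/- and wild-type hearts. On the first 2 principal components of all genes tested, 3 libraries lay farthest from the centre: Ing4+/+ Ing5-/- replicate 1 and Ing4+/- Ing5+/+ replicate 4 on the first (21.3% of the variance) and Ing4+/- Ing5-/- replicate 2 on the second. Ing4+/+ Ing5-/- replicate 1 also had the highest summed level of 10 epicardial genes, 1462 CPM, against 425 to 709.8 CPM in the other hearts.

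Compared per kilobase of gene length, the levels of the 10 genes fell into 3 tiers. Des, the intermediate filament desmin, had a median of 471 RPKM (reads per kilobase of gene length, scaled to library size) over the 16 hearts, and Abcc9, the sulfonylurea receptor SUR2 of ATP-sensitive potassium channels, had 23.3 RPKM. Both genes are also expressed by cardiomyocytes, so their level in a whole heart is not a measure of mural cells. In the middle tier were Cspg4 (the proteoglycan NG2) with a median of 8.56 RPKM, Pdgfrb with 7.35, Notch3 with 7.06, Anpep (aminopeptidase N, CD13) with 4.05 and Rgs5, a regulator of G-protein signalling, with 2.79 RPKM. The ranges of Cspg4, Pdgfrb and Notch3 over the hearts overlapped, so their order is not fixed beyond the spread between hearts. Kcnj8, the pore subunit Kir6.1 that pairs with SUR2 in pericytes, had a median of 0.773 RPKM.

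The genes that separate mature pericytes most sharply from other cells in adult mouse brain were at or near 0. Higd1b, a mitochondrial membrane protein, had 0 reads in 13 of 16 libraries and at most 3 reads in the others. Vtn, which encodes the matrix protein vitronectin, had 0 reads in 9 of 16 libraries and at most 17. A library with 0 reads allows up to 0.0861 to 0.153 CPM, the level of 3 reads at these depths, by counting error alone. Higd1b and Vtn did not pass the filter on low counts, so 8 of the 10 genes entered the fit across all genes. In a whole-heart sample fewer cells of a type and less RNA per cell cannot be told apart.

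**Figure D1:**
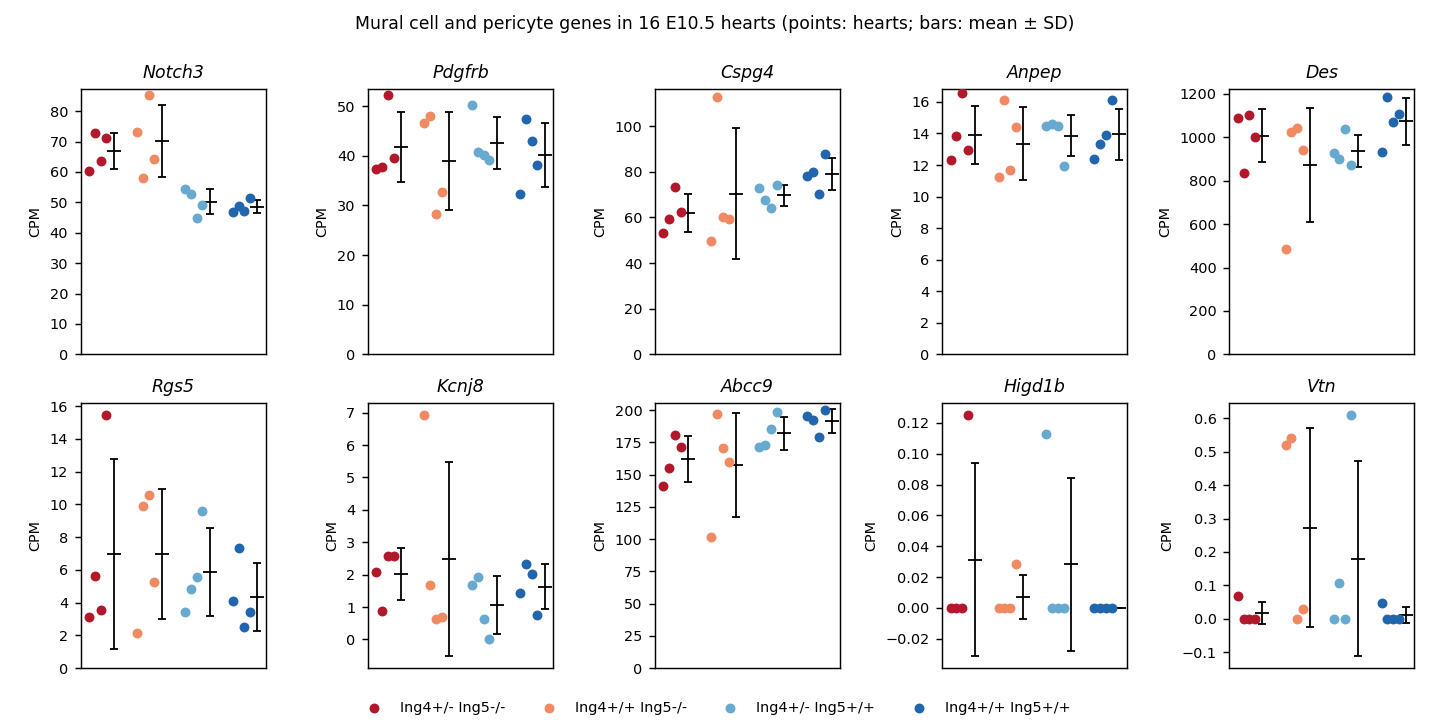
Level of each of the 10 genes in CPM (vertical axes, linear) in every heart (points) of the 4 genotypes, with the mean ± SD beside each group. Notch3 lies between 57.9 and 85.3 CPM in all 8 Ing5-/- hearts and between 44.8 and 54.2 CPM in all 8 Ing5+/+ hearts, while the groups overlap in each of the other 9 genes.

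The receptor gene Notch3 had 60.2, 72.7, 63.7 and 71.0 CPM in Ing4+/- Ing5-/- hearts and 73.2, 57.9, 85.3 and 64.4 CPM in Ing4+/+ Ing5-/- hearts. Hearts with both Ing5 alleles were lower, with 54.2, 52.8, 44.8 and 49.1 CPM in Ing4+/- Ing5+/+ and 47.0, 48.8, 47.1 and 51.5 CPM in wild type. Every Ing5-/- heart was above every Ing5+/+ heart, whichever the Ing4 genotype, the closest being 57.9 CPM in an Ing5-/- heart and 54.2 CPM in an Ing5+/+ heart. The medians were 67.7 CPM over the 8 Ing5-/- and 49.0 CPM over the 8 Ing5+/+ hearts. Such a separation in this direction occurred in 0.336% of the 15785 genes, and nothing is read from that share because Notch3 was chosen for it.

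In log2 units the fitted difference of Notch3 was 0.46 ± 0.099 (SE) for Ing4+/- Ing5-/- over wild type. It was 0.41 ± 0.099 for Ing4+/- Ing5-/- over Ing4+/- Ing5+/+ and 0.53 ± 0.099 for Ing4+/+ Ing5-/- over wild type. Over all 8 Ing5-/- and 8 Ing5+/+ hearts it was 0.47 ± 0.070. These comparisons share hearts, so their likeness is not independent. Loss of 1 Ing4 allele went with small differences, of -0.07 ± 0.098 among Ing5-/- hearts and 0.05 ± 0.099 among Ing5+/+ hearts. The Ing5 difference with 1 Ing4 allele minus that with 2 was -0.12 ± 0.14. With each heart left out in turn, the difference over wild type stayed between 0.42 and 0.51.

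In the litters that held both Ing5 states the same order was seen. In litter 4 the Ing5-/- heart had 72.7 CPM of Notch3 against a mean of 49.9 CPM in its 2 Ing5+/+ littermates. In litter 6 the values were 63.7 CPM in the Ing5-/- heart and 48.2 CPM on average in the 2 Ing5+/+ hearts, and in litter 7 they were 67.7 CPM on average in the 2 Ing5-/- hearts and 49.1 CPM in the Ing5+/+ heart. The log2 ratios within these litters, 0.54, 0.40 and 0.46, bracketed the difference over all hearts.

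**Figure D2:**
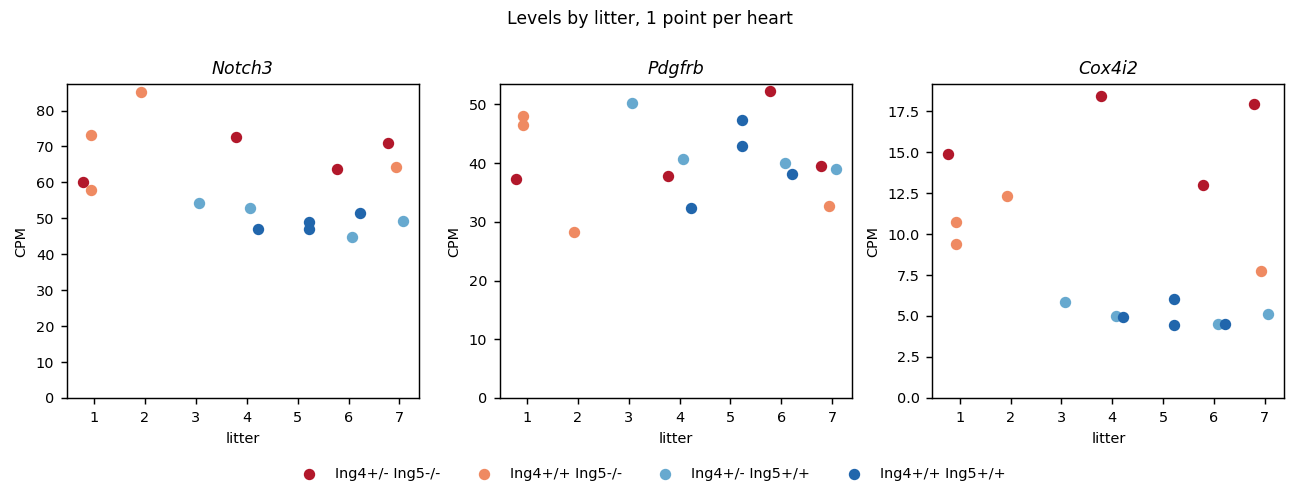
Levels of Notch3, Pdgfrb and Cox4i2 in CPM (vertical axes) by litter (horizontal axis), 1 point per heart, coloured by genotype. In litters 4, 6 and 7 every Ing5-/- heart is above its Ing5+/+ littermates in Notch3 and Cox4i2, which is not so for Pdgfrb in litters 4 and 7.

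Kcnj8 was scarce and its variation sat in single hearts. It had 2.07, 0.872, 2.56 and 2.59 CPM in Ing4+/- Ing5-/- hearts, 6.93, 1.69, 0.634 and 0.689 CPM in Ing4+/+ Ing5-/- hearts, 1.69, 1.92, 0.625 and 0 CPM in Ing4+/- Ing5+/+ hearts, and 1.44, 2.31, 2.01 and 0.764 CPM in wild-type hearts. These levels rest on 0 to 213 reads per library. The highest heart, Ing4+/+ Ing5-/- replicate 1, and the one with no read, Ing4+/- Ing5+/+ replicate 4, are both among the 3 libraries farthest from the centre, and all 4 genotypes overlapped. The log2 difference was 0.30 ± 0.83 for Ing4+/- Ing5-/- over wild type, 0.91 ± 0.85 over Ing4+/- Ing5+/+, and 0.59 ± 0.83 for Ing4+/+ Ing5-/- over wild type. Without Ing4+/+ Ing5-/- replicate 1 the last of these became -0.71, and with litter as a block the 3 became 1.31, 1.57 and 1.36. No litter held both Ing4+/+ Ing5-/- and wild-type hearts, so the value of 1.36 came only through the other genotypes. Over all Ing5-/- against all Ing5+/+ hearts the log2 difference was 0.75 ± 0.59, with a range of 0.10 to 0.98 when single hearts were left out and 1.47 with litter as a block. The litters that held both Ing5 states differed in sign. Their log2 ratios, with 0.5 CPM added, were -0.67 in litter 4, 1.36 in litter 6 and 2.10 in litter 7. The Ing5+/+ heart of litter 7 was the one with no read.

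Kcnj8 and Abcc9, the subunits of one channel, are neighbours on chromosome 6 with 16.2 kb between them on GRCm38, Kcnj8 at chr6:142564837-142571614 and Abcc9 at chr6:142587862-142702766. They are 17.5 Mb from Ing4, and in Abcc9 the loss of 1 Ing4 allele went with log2 differences of 0.04 ± 0.14 among Ing5-/- and -0.07 ± 0.14 among Ing5+/+ hearts, neither of which passed the test. Abcc9 had 141, 155, 181 and 172 CPM in Ing4+/- Ing5-/-, 102, 197, 171 and 160 CPM in Ing4+/+ Ing5-/-, 171, 173, 185 and 199 CPM in Ing4+/- Ing5+/+, and 195, 192, 179 and 200 CPM in wild-type hearts. With Ing5 loss Abcc9 was lower on average, by log2 differences that did not pass the test. They were -0.24 ± 0.14 for Ing4+/- Ing5-/- over wild type and -0.17 ± 0.14 over Ing4+/- Ing5+/+. Ing4+/+ Ing5-/- over wild type gave -0.28 ± 0.14, and all Ing5-/- over all Ing5+/+ hearts gave -0.22 ± 0.098. The heart with the most Kcnj8 had the least Abcc9. The other genes of the channel family did not pass the test in any comparison. Kcnj11, the pore subunit of cardiomyocytes, averaged 36.3 ± 2.58 CPM in Ing4+/- Ing5-/- and 37.9 ± 0.820 CPM in wild-type hearts, and Abcc8 averaged 5.58 ± 0.200 CPM in Ing4+/- Ing5-/- and 5.17 ± 0.904 CPM in wild-type hearts (SD, n = 4 each).

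The other 8 members carry tests where their counts allow them. For Ing4+/- Ing5-/- over wild type, 0 of the 6 that passed the filter on low counts had an adjusted p under 0.05 with edgeR's quasi-likelihood test, where 0.855% of all genes did. At an unadjusted p under 0.05 there were likewise 0, against 11.4% of all genes. The groups did not separate in any of the 6, against 10.2% of all genes. Their median log2 difference was -0.05, with a range of -0.35 to 0.67, and the median over all genes was 0.0027. The smallest adjusted p of the 6 was 0.546, that of Abcc9.

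The other comparisons gave the same counts. For Ing4+/- Ing5-/- over Ing4+/- Ing5+/+, 0 of 6 were called, against 1.16% of all genes, with 0 at an unadjusted p under 0.05, against 13.9% of all genes, and a median log2 difference of -0.01. For Ing4+/+ Ing5-/- over wild type, 0 of 6 were called, against 0.0127% of all genes, with 0 at an unadjusted p under 0.05, against 9.59% of all genes, and a median of -0.11. For all Ing5-/- over all Ing5+/+ hearts, 0 of 6 were called, against 2.13% of all genes, and 1 had an unadjusted p under 0.05, Abcc9, against 16.9% of all genes. Loss of 1 Ing4 allele gave 0 of 6 calls among Ing5-/- hearts, where 0.00634% of all genes were called, and 0 of 6 among Ing5+/+ hearts, where 0% were. The interaction gave 0 of 6 calls, against 0% of all genes. At an unadjusted p under 0.05 these last 3 gave 0 of 6 each, against 6.63%, 4.73% and 5.88% of all genes. DESeq2 and limma-voom also called 0 of these members in each comparison.

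The receptor Pdgfrb is the gene by which PDGF-responsive mural cells are usually recognised, and cushion mesenchyme and fibroblast precursors express it as well. It had 37.3, 37.8, 52.2 and 39.4 CPM in Ing4+/- Ing5-/- hearts, 46.5, 48.0, 28.3 and 32.8 CPM in Ing4+/+ Ing5-/- hearts, 50.2, 40.7, 40.1 and 39.1 CPM in Ing4+/- Ing5+/+ hearts and 32.4, 47.3, 43.0 and 38.1 CPM in wild-type hearts. All 4 genotypes overlapped over most of their range. The log2 difference was 0.05 ± 0.16 for Ing4+/- Ing5-/- over wild type, with an adjusted p of 0.942. Over all Ing5-/- against all Ing5+/+ hearts it was -0.04, with a 95% interval of -0.27 to 0.19, and with litter as a block it was 0.18 (adjusted p = 0.584).

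Cspg4, which codes for the surface proteoglycan NG2, was lower on average with 3 alleles lost, but not past the test. It had 53.3, 59.2, 73.2 and 62.6 CPM in Ing4+/- Ing5-/-, 49.6, 112.7, 60.2 and 59.2 CPM in Ing4+/+ Ing5-/-, 72.7, 67.7, 64.0 and 74.1 CPM in Ing4+/- Ing5+/+, and 78.2, 80.1, 70.2 and 87.6 CPM in wild-type hearts. The Ing4+/- Ing5-/- and wild-type hearts overlapped, and all 4 Ing4+/- Ing5+/+ hearts were also below the wild-type mean of 79.0 ± 7.16 CPM (SD, n = 4). The log2 difference for Ing4+/- Ing5-/- over wild type was -0.35 ± 0.20 (adjusted p = 0.548). Over all Ing5-/- against all Ing5+/+ hearts it was -0.17 ± 0.14, and without Ing4+/+ Ing5-/- replicate 2 it was -0.33 with an adjusted p of 0.0163, the 1 call among these members under any setting tried. The ratio of Notch3 to Cspg4 was 0.870 to 1.48 in 7 of the 8 Ing5-/- hearts and 0.588 to 0.779 in the 8 Ing5+/+ hearts, with the exception, Ing4+/+ Ing5-/- replicate 2, at 0.513. The ratio of Notch3 to Pdgfrb overlapped, at 1.21 to 3.01 in Ing5-/- and 1.03 to 1.45 in Ing5+/+ hearts. Both ratios hold Notch3, which was chosen for its levels, and carry no test.

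Rgs5, an early and broad marker of pericytes, had 3.15, 5.64, 3.57 and 15.5 CPM in Ing4+/- Ing5-/-, 2.18, 9.88, 10.6 and 5.25 CPM in Ing4+/+ Ing5-/-, 3.42, 4.85, 5.58 and 9.63 CPM in Ing4+/- Ing5+/+ and 4.08, 7.32, 2.54 and 3.41 CPM in wild-type hearts. Its spread within a genotype was several-fold, and the groups overlapped throughout. The log2 difference of 0.67 ± 0.59 for Ing4+/- Ing5-/- over wild type was the highest among these members and had a 95% interval of -0.50 to 1.83. The interval holds both no difference and a several-fold one, so a moderate change of Rgs5 was not detectable at this spread.

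Anpep, the surface peptidase CD13, was the steadiest member. Its mean was 13.9 ± 1.86 CPM in Ing4+/- Ing5-/-, 13.4 ± 2.31 CPM in Ing4+/+ Ing5-/-, 13.9 ± 1.28 CPM in Ing4+/- Ing5+/+ and 13.9 ± 1.60 CPM in wild-type hearts (SD, n = 4 each). The 95% interval of its log2 difference over all Ing5-/- against Ing5+/+ hearts was -0.21 to 0.16. Desmin averaged 1007 ± 122 CPM in Ing4+/- Ing5-/-, 873 ± 263 CPM in Ing4+/+ Ing5-/-, 935 ± 73.7 CPM in Ing4+/- Ing5+/+ and 1074 ± 107 CPM in wild-type hearts (SD, n = 4 each). Its lowest heart, with 484 CPM, was Ing4+/+ Ing5-/- replicate 1, which was also the lowest in Abcc9 with 102 CPM. Des lies on chromosome 1, 18.4 Mb from Ing5, and Rgs5 lies on the same chromosome, 75.8 Mb from Ing5.

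**Figure D3:**
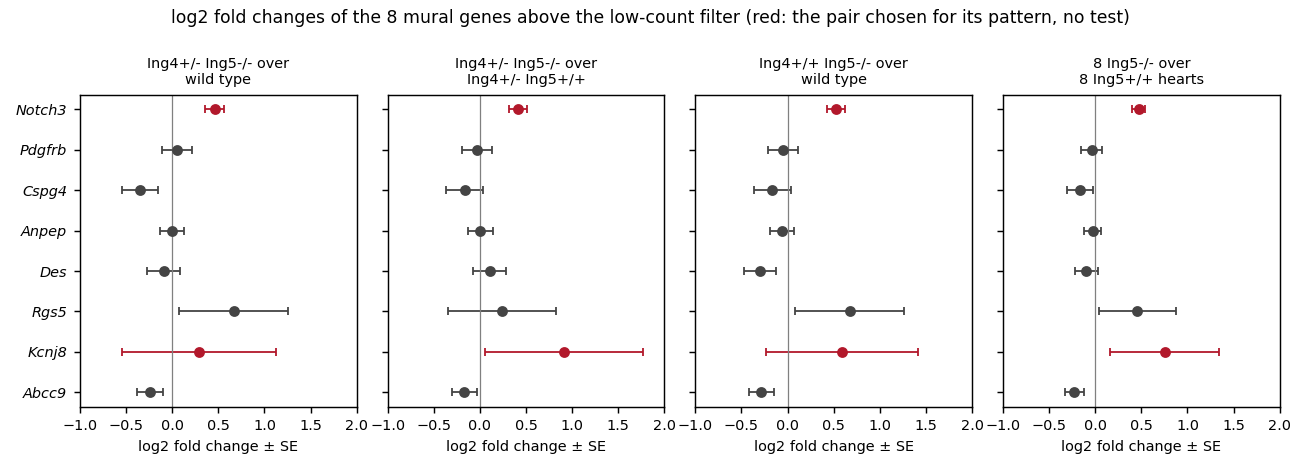
Log2 fold change ± SE (horizontal axes) of the 8 mural genes that passed the filter on low counts, in 4 comparisons of Ing5-/- with Ing5+/+ hearts. Notch3 lies between 0.41 and 0.53 in all 4 panels, Pdgfrb, Anpep, Des, Cspg4 and Abcc9 lie at or below 0.11, and Rgs5 and Kcnj8 have the widest errors.

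Beyond the 10 members, a wider list of 24 genes reported in mural cells was read in the same fit, and 18 passed the filter on low counts. For Ing4+/- Ing5-/- over wild type 2 of the 18 rose, where 0.697% of all genes did, none fell, and the median log2 difference was -0.07, against 0.0027 over all genes. The 2 were Ndufa4l2 and Cox4i2. Both are enriched in pericytes of adult mouse tissues, and both are also targets of HIF that adapt the respiratory chain to low oxygen. Ndufa4l2 had 13.0, 21.3, 11.5 and 18.9 CPM in Ing4+/- Ing5-/- hearts and 1.53, 3.59, 1.21 and 1.88 CPM in wild-type hearts, a log2 difference of 2.96 ± 0.42 (adjusted p = 0.00294, or 0.200 with litter as a block). Cox4i2 had 14.9, 18.4, 13.0 and 17.9 CPM in Ing4+/- Ing5-/- hearts and 4.96, 6.04, 4.48 and 4.53 CPM in wild-type hearts, a log2 difference of 1.68 ± 0.16 (adjusted p = 1.70e-05). In Ing4+/+ Ing5-/- hearts Ndufa4l2 averaged 5.01 ± 2.38 CPM, with 3.22, 5.71, 8.09 and 3.04 CPM, and Cox4i2 had 9.37, 10.7, 12.3 and 7.75 CPM.

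The other 16 of these mural genes did not pass the test. They include Mcam (-0.06), the gap junction gene Gja4 (0.10), the guanylate cyclase subunit genes Gucy1a1 (-0.17) and Gucy1b1 (-0.08), Cd248 (0.28), Rgs4 (-0.30) and Foxc1 (-0.08), in log2 differences of Ing4+/- Ing5-/- over wild type. Their summed level, with the scarce genes of the list included and Ndufa4l2 and Cox4i2 left out, was 816 to 999 CPM in Ing4+/- Ing5-/-, 859 to 998 CPM in Ing4+/+ Ing5-/-, 908 to 1045 CPM in Ing4+/- Ing5+/+ and 887 to 996 CPM in wild-type hearts. The ranges of the 4 genotypes overlapped.

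Of 14 genes used as markers of vascular smooth muscle, the other branch of the mural lineage, 0 passed the test in Ing4+/- Ing5-/- over wild-type hearts. Their median log2 difference was -0.03. They were read in whole hearts, so their level is not a measure of smooth muscle cells alone. Acta2, smooth muscle actin, which young cardiomyocytes also express, had 2798, 2067, 2478 and 2736 CPM in Ing4+/- Ing5-/- and 2141, 2343, 2320 and 2298 CPM in wild-type hearts. Myh11, the smooth muscle myosin heavy chain, had at most 6.31 CPM in any heart.

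**Figure D4:**
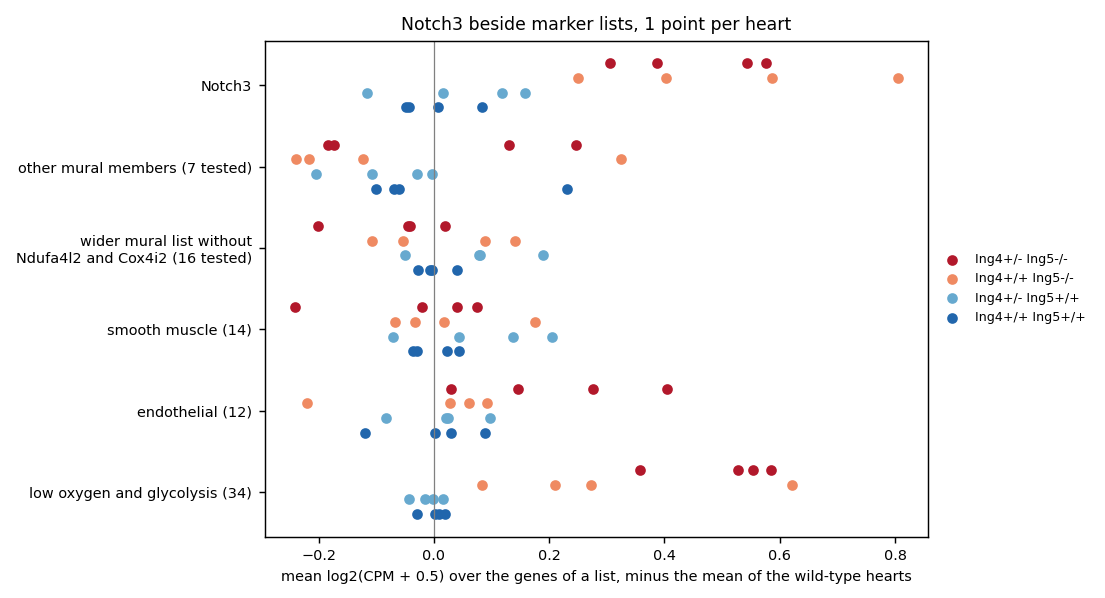
Mean log2(CPM + 0.5) over the genes of a list minus the mean of the wild-type hearts (horizontal axis), 1 point per heart, for Notch3 and 5 lists (vertical axis), coloured by genotype. The 8 Ing5-/- hearts are to the right of the 8 Ing5+/+ hearts for Notch3 and for the low-oxygen and glycolysis genes, and overlap with them for the mural, smooth muscle and endothelial lists.

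Among the partners of NOTCH3 were 17 receptors, ligands, modifiers and targets of the Notch pathway. In Ing4+/- Ing5-/- over wild-type hearts their median log2 difference was 0.09 and none fell. Of the 17, 1 rose, where 0.697% of all genes did. The count was 4 with DESeq2, with only the 2 groups compared, without the 3 libraries far from the centre and without Ing4+/+ Ing5-/- replicate 1 alone, was 2 without Ing4+/- Ing5+/+ replicate 4, and was 0 with limma-voom. Over all genes the 135 calls in either direction became 15 to 465 under the settings tried. The 1 of the 17 that rose was Notch4, the receptor of endothelial cells. It had 33.6 ± 5.49 CPM in Ing4+/- Ing5-/- and 22.9 ± 1.16 CPM in wild-type hearts (SD, n = 4 each). These groups did not overlap, which held for 10.2% of all genes in either direction. The log2 difference of Notch4 was 0.55 ± 0.11 (adjusted p = 0.0245, or 0.296 with litter as a block). The call ended when any 1 of 7 of the 8 hearts was left out, all but Ing4+/- Ing5-/- replicate 1, at adjusted p-values of 0.0527 to 0.108. Notch1 (-0.02) and Notch2 (-0.03) did not pass, nor did the ligand genes Jag1 (0.14) and Dll4 (0.76, adjusted p = 0.0881). Heyl, a target of NOTCH3 signalling in mural cells, had 7.39, 7.01, 9.40 and 8.85 CPM in Ing4+/- Ing5-/- and 7.47, 10.3, 7.51 and 6.77 CPM in wild-type hearts. The Heyl groups overlapped, with a log2 difference of 0.02 ± 0.19 (adjusted p = 0.978), and Hes1 (-0.04), Hey1 (-0.18) and Hey2 (0.09) did not pass either. Over all Ing5-/- against all Ing5+/+ hearts 2 of the 17 rose, where 1.36% of all genes did, Notch4 (0.36 ± 0.081, adjusted p = 0.0222) and Mfng, a modifier of Notch receptors (0.61 ± 0.15, adjusted p = 0.0320). The Notch4 call ended without Ing4+/- Ing5-/- replicate 2 or wild-type replicate 2 or 4 (adjusted p = 0.0528 to 0.0538), and the Mfng call without Ing4+/- Ing5-/- replicate 1 or 4, Ing4+/+ Ing5-/- replicate 2, Ing4+/- Ing5+/+ replicate 1 or 2, or wild-type replicate 2, 3 or 4 (0.0511 to 0.0733). With litter as a block neither passed, at 0.46 for Notch4 (adjusted p = 0.212) and 0.31 for Mfng (adjusted p = 0.627).

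Pdgfb, the ligand gene of PDGFR-beta, had 6.74, 9.92, 10.6 and 11.2 CPM in Ing4+/- Ing5-/- hearts and 5.94, 4.04, 4.44 and 4.89 CPM in wild-type hearts, a log2 difference of 0.99 ± 0.20 (adjusted p = 0.0229). It was the 1 of 5 PDGF genes that passed, where 0.697% of all genes rose. With litter as a block its adjusted p was 0.584. Leaving out Ing4+/- Ing5-/- replicate 2, 3 or 4 or wild-type replicate 2, 3 or 4 also ended the call (adjusted p = 0.0630 to 0.0962). The receptor gene Pdgfra, a mark of mesenchyme, had a log2 difference of -0.27 ± 0.14 and an adjusted p of 0.496. Its Ing4+/- Ing5-/- and wild-type hearts did not overlap, which held for 10.2% of all genes in either direction. Of 14 tested genes for other signals that bring mural cells to vessels, Tgfb1 rose (0.47 ± 0.10, adjusted p = 0.0318). Over all genes 0.697% rose. The Tgfb1 call ended when any 1 of 7 of the 8 hearts was left out, all but Ing4+/- Ing5-/- replicate 1 (adjusted p = 0.0840 to 0.148). The angiopoietin gene Angpt1 (-0.08), its receptor gene Tek (-0.18) and S1pr1 (-0.06) were among those that did not pass.

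Of 34 genes known to respond to low oxygen or to serve glycolysis, 10 rose in Ing4+/- Ing5-/- over wild-type hearts. Over all genes 0.697% rose in this comparison. None of the 34 fell and 33 had a positive difference, with a median of 0.43 against 0.0027 over all genes. The count of 10 was 2 with litter as a block and 18 without the 3 libraries far from the centre. With single hearts left out it was lowest, at 3, without Ing4+/- Ing5-/- replicate 2 or 4 or wild-type replicate 3 or 4, was 5 without wild-type replicate 1, and was 22 without Ing4+/+ Ing5-/- replicate 1 and 18 without replicate 3 of the same genotype. Calls over all genes, in either direction, moved as well. The 135 became 15 with litter as a block and 37 to 321 with single hearts left out, and they also rose without the 3 libraries. Vegfa, the endothelial growth factor, had 176, 240, 192 and 179 CPM in Ing4+/- Ing5-/- and 102, 90.1, 97.2 and 110.7 CPM in wild-type hearts (log2 difference 0.98 ± 0.12, adjusted p = 0.000524, or 0.154 with litter as a block). Egln3, an oxygen-sensing hydroxylase, had 24.8, 28.1, 23.6 and 30.9 CPM in Ing4+/- Ing5-/- and 11.96, 11.6, 13.5 and 10.2 CPM in wild-type hearts (1.18 ± 0.14, adjusted p = 0.000273). In Ing4+/- Ing5-/- over Ing4+/- Ing5+/+ hearts 17 of the 34 rose, where 0.76% of all genes did, and 10 with litter as a block. With single hearts left out that count was 4 to 25, lowest without Ing4+/- Ing5+/+ replicate 2 and highest without Ing4+/+ Ing5-/- replicate 1. Over all genes the 183 calls in either direction became 72 to 461 with single hearts left out and 78 to 486 under the other settings. In Ing4+/+ Ing5-/- over wild-type hearts 0 of 34 passed with edgeR, where 0.0127% of all genes did in either direction, and 32 were positive with a median of 0.25. The count there was 4 with DESeq2, 1 without the 3 libraries, and 1 without Ing4+/+ Ing5-/- replicate 2 or 4. Over all genes the 2 calls became 0 to 43 under the settings tried. Whether low oxygen or the number of mural cells had a part in the Notch3 levels was not tested.

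Markers of other cell types moved too. Of 14 macrophage genes 8 rose in Ing4+/- Ing5-/- over wild-type hearts, where 0.697% of all genes did. The summed level of the 14 was 47.9 to 77.3 CPM in Ing4+/- Ing5-/-, 23.8 to 72.0 CPM in Ing4+/+ Ing5-/-, 19.4 to 25.4 CPM in Ing4+/- Ing5+/+ and 13.9 to 20.03 CPM in wild-type hearts. The count of 8 was 1 with litter as a block, 8 without the 3 libraries and 2 to 11 with single hearts left out, lowest without wild-type replicate 3 or 4 and highest without Ing4+/+ Ing5-/- replicate 1. Over all genes the 135 calls in either direction became 15 with litter as a block and 37 to 321 with single hearts left out. Of 12 endothelial genes 0 passed (0 to 2 under the other settings), with a median of 0.22 and 10 positive, and their summed level was 1133 to 1525 CPM in Ing4+/- Ing5-/- and 1124 to 1314 CPM in wild-type hearts. Of 10 epicardial genes 1 rose, Krt19, where 0.697% of all genes did. Its log2 difference was 0.71 ± 0.12 (adjusted p = 0.00501, or 0.0941 with litter as a block). Among the 10, 8 were negative and the median was -0.37, with summed levels of 450 to 563 CPM in Ing4+/- Ing5-/- and 615 to 677 CPM in wild-type hearts. With only the 2 groups compared, 6 epicardial genes were called, counted in either direction. Under that setting 465 of all genes were called, instead of 135. The 6 other lists gave 0 calls in this comparison, with at most 1 for liver bud and neural crest under any other setting and 0 for the rest, but some leaned one way. All 12 erythroid genes were positive, with a median of 1.09, and their summed level was 7952 to 49711 CPM in Ing4+/- Ing5-/-, highest in replicate 2, and 9077 to 12068 CPM in wild-type hearts. All 5 liver bud genes tested were positive, with a median of 0.52, and the summed level of the list was 29.0 to 36.0 CPM in Ing4+/- Ing5-/- and 17.4 to 19.6 CPM in wild-type hearts, without overlap. Of 12 cardiomyocyte genes 11 were negative, with a median of -0.16 and overlapping sums. The medians were -0.15 for 10 mesenchyme genes, of which 7 were negative, -0.06 for 5 neural crest genes and 0.09 for 3 skeletal muscle genes. The part of these cells in the Notch3 result was not tested.

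After each genotype's mean was taken off log2 levels, Pearson's r between Notch3 and the 7 other members that had passed was -0.39 to 0.10 over the 16 hearts, with a median of -0.24, where 90% of all 13831 genes fell between -0.41 and 0.42. The median Spearman's rho was -0.14. With the 34 low-oxygen genes the median r was 0.29 and 33 of the 34 were positive. The median rho with these genes was 0.23. Their median r moved with the hearts kept, from 0.0073 to 0.48 with single hearts left out. It was -0.05 without the 2 hearts farthest from the median in Notch3, Ing4+/+ Ing5-/- replicates 2 and 3, while the members' median became 0.11. Leaving out hearts for their Notch3 level narrows its range, which can by itself pull r towards 0. The hearts share litters, and these values are descriptions without a test.

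The 5 genes most like Notch3 by this measure were Zscan2 (r = 0.90), Pla2g15 (0.85), Kbtbd11 (0.82), Fchsd2 (0.81) and Zfp729a (0.81), none of them in any list used here. Those most like Kcnj8 were Pde8b (0.95), Camk1d (0.95), Naxd (0.94), Cldn1 (0.93) and Zbtb7c (0.93). The r of Kcnj8 with Abcc9 was -0.46 over all 16 hearts and 0.11 without those 3 libraries. Abcc9 and Des, the 2 members also made by cardiomyocytes, had an r of 0.79, which was 0.17 without the 3 libraries.

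**Figure D5:**
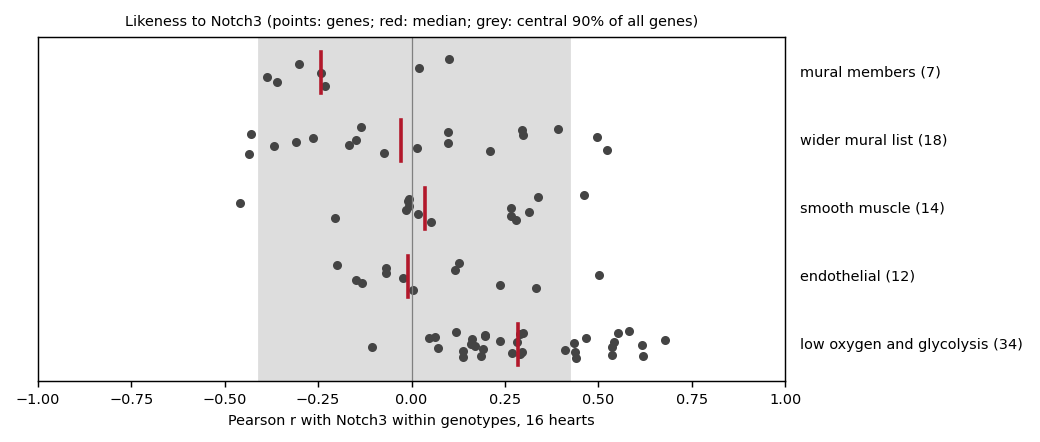
Pearson's r with Notch3 over 16 hearts after genotype means were removed (horizontal axis) for the genes of 5 lists (points), with each list's median in red and the central 90% of all genes in grey. The mural members have a median of -0.24 and the low-oxygen genes one of 0.29, and most points of both lists lie within the grey band.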

How the data were processed

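RNA of 16 embryonic hearts was sequenced as stranded libraries, per the labels' protocols. The authors deposited raw counts of reads per gene in 1 series table and 16 single tables, which were equal. Build mm10, bcl2fastq and featureCounts are named in the submitters' processing notes. Neither these nor the labels give an aligner, an annotation or the strand setting of the counting. The deposited gene length served only for RPKM. Of 27179 IDs, 25275 (93%) matched a symbol, and the others took 2.08% of reads.

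In R 4.3.3, edgeR 4.0.16 kept 15785 genes (filterByExpr) and fitted a robust quasi-likelihood model of 4 group means to all 16 libraries, with TMM factors of 0.967 to 1.08. Adjusted p-values are Benjamini-Hochberg values over all genes tested, called under 0.05. An SE is the fold change divided by the square root of F. The contrast of all Ing5-/- with all Ing5+/+ hearts was added after the data were seen. Members, lists and tests were chosen with earlier results of these data known. Named genes were the members, Ing4, Ing5, the Notch, PDGF and channel partners, and called members of each list. Genes of the wider lists named without a call were chosen after their values were seen. Likeness used edgeR's log2 CPM with a prior count of 0.5 reads, less the genotype mean, for genes averaging at least 1 CPM.

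The fit was tested on simulated data. Alternatives were DESeq2 1.42.0 size factors, its Wald test, limma-voom (limma 3.58.1), no filter, litter or replicate number as a block, a covariate for Y-linked genes, only the groups compared, and leaving out libraries. Their use on counts of the wider lists was added after the data were seen. Limits for 0 reads cover counting error only. Intervals of fold changes were built from the SE of the quasi-likelihood fit, so they also cover the spread between hearts. They used a normal quantile and are therefore somewhat narrower than the quasi-likelihood test implies.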

Additional observations from a re-analysis of the deposited data

Results flagged for a closer look

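In the 40 groups formed by 10 genes and 4 genotypes, 10 held 1 heart whose gap to the nearest other heart took up more than 0.829 of the group's range. Chance gives about 1 in 20 such groups, and a group in which a single heart has any read meets the condition by construction.

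Among the members above the filter, Pdgfrb was high in Ing4+/- Ing5-/- replicate 3 with 52.2 CPM and in Ing4+/- Ing5+/+ replicate 1 with 50.2 CPM. Kcnj8 was high in Ing4+/+ Ing5-/- replicate 1 with 6.93 CPM, or 213 reads, where the other 3 hearts had at most 1.69 CPM. Cspg4 was high in Ing4+/+ Ing5-/- replicate 2 with 112.7 CPM, where the other 3 hearts had at most 60.2 CPM. Anpep was low in Ing4+/- Ing5+/+ replicate 4 with 11.9 CPM.

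The remaining cases rest on 1 to 3 reads in a heart. Higd1b had 0.125 CPM in Ing4+/- Ing5-/- replicate 4, 0.0287 CPM in Ing4+/+ Ing5-/- replicate 4 and 0.113 CPM in Ing4+/- Ing5+/+ replicate 1. Vtn had 0.0678 CPM in Ing4+/- Ing5-/- replicate 1 and 0.0464 CPM in wild-type replicate 1. No group of Notch3 was among the 10.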

How the results depend on the processing

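The count of called members other than Notch3 and Kcnj8 stayed at 0 in all 5 pairwise comparisons under every setting run, the replicate block among them. For all Ing5-/- against all Ing5+/+ hearts it was 0 to 1 with single hearts left out, the 1 being Cspg4 without Ing4+/+ Ing5-/- replicate 2. Same-numbered hearts correlated above 0.1 in 4 of 24 pairs (median r 0.020), and hearts of the same litter in 3 of 11 (median r 0.024). Since this measure did not set littermates apart, it cannot show whether the replicate numbers pair the hearts. Over all genes, 135 calls for Ing4+/- Ing5-/- over wild type became 15 with litter as a block, 78 with limma-voom, 325 with DESeq2, 465 with only the 2 groups compared and 315 without the 3 libraries far from the centre. For all Ing5-/- over all Ing5+/+ hearts, 336 calls became 17 with litter as a block and 706 with DESeq2. The single-allele and interaction fits called 0 to 19 genes under any setting. Depth limits Kcnj8, Higd1b and Vtn.

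Uncalled log2 differences near 0 changed sign. Anpep in Ing4+/- Ing5-/- over wild type was 0.00041 with limma-voom, 0.11 with litter as a block and 0.026 with the Y-linked covariate. Over Ing4+/- Ing5+/+ it was -0.0061 with limma-voom, -0.00061 with the replicate block and -0.058 without the 3 libraries. In Ing4+/+ Ing5-/- over wild type it was 0.27 with the litter block and 0.015 without the 3 libraries, and over all hearts 0.17 with the litter block. With the litter block Pdgfrb became 0.029 in Ing4+/- Ing5-/- over Ing4+/- Ing5+/+, 0.33 in Ing4+/+ Ing5-/- over wild type and 0.18 over all hearts, and Rgs5 became -0.059 in Ing4+/- Ing5-/- over Ing4+/- Ing5+/+. The litter-block values for Ing4+/+ Ing5-/- over wild type came only through the other genotypes, since no litter held both. Without the 3 libraries Abcc9 became -0.10 in Ing4+/- Ing5-/- over Ing4+/+ Ing5-/-, and Des 0.026 over all hearts. The cause was not tested.

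With single hearts left out, Ing4+/- Ing5-/- over wild type ranged from -0.076 to 0.14 for Pdgfrb, -0.087 to 1.05 for Rgs5 and -0.097 to 0.074 for Anpep. Over Ing4+/- Ing5+/+ the ranges were -0.16 to 0.061 for Pdgfrb, -0.51 to 0.59 for Rgs5 and -0.090 to 0.060 for Anpep. For Ing4+/+ Ing5-/- over wild type they were -0.17 to 0.076 for Pdgfrb and -0.16 to 0.018 for Anpep. Over all hearts they were -0.10 to 0.024 for Pdgfrb, -0.079 to 0.012 for Anpep and -0.14 to 0.0052 for Des. For Abcc9 they were -0.12 to 0.17 in Ing4+/- Ing5-/- over Ing4+/+ Ing5-/- and -0.044 to 0.24 in the interaction.

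The median r of Notch3 with the members was -0.40 with litter means taken out and -0.36 to 0.046 with single hearts left out. With the low-oxygen genes it was -0.17 with litter means taken out, 0.52 without the 3 libraries and 0.0073 to 0.48 with single hearts left out. For Kcnj8 with the members it was 0.11 without the 3 libraries.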
